A study of Rattus norvegicus with 7 samples.

Results

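Slc5a3, Slc6a6, Slc38a2, Nfat5, Sgk1 and Isyna1 were followed across 7 rat lens samples as the genes of osmolyte uptake and synthesis. They were chosen by symbol, with the earlier difference between Galactose and Control lenses in these same arrays known, and where a symbol had several probes the brightest on average was to be taken. Each symbol had 1 probe, so 6 probes stood for the 6 genes, of 5320 probes tested and 36685 on the array. Lenses of 6-week-old male Sprague Dawley rats were cultured whole, and the RNA of each ground lens sample was measured on 1 GeneChip Rat Gene 2.0 ST array. The Glutamate group (2 arrays) was cultured for 3 days in 30 mM galactose. The medium was then replaced with the same medium, 20 mM glutamate was added, and culture went on for 3 more days, 6 in all. The Galactose group (3 arrays) was cultured for 6 days in 30 mM galactose without glutamate. By the study's methods, lenses without glutamate had only sterile water added after the change of medium. The Control group (2 arrays) had sterile water in place of galactose. It was cultured for 4 days in the array named Day 4 and for 6 days in the array named Day 6. The groups thus differed in the solute added to the medium, and the part of osmolarity was not tested. Nothing in the labels or methods places the arrays of a group in separate animals, so the p-values measure the spread between these samples only. The spread of the Control group, which enters its SDs and every p-value, also includes the difference between 4 and 6 days of culture. The culture is an ex vivo model of sugar cataract, in which galactose turns the lens opaque. The study selected genes whose signal rose with galactose and fell after glutamate, so genes lowered by galactose were outside that selection.

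Cells hold their volume by keeping small organic molecules, the organic osmolytes, at high concentration inside. In the lens these are above all myo-inositol and taurine, together with the sugar alcohols that aldose reductase makes from glucose or galactose. When the medium becomes hypertonic, the transcription factor Nfat5 (also called TonEBP) binds a short element, TonE, near the genes for the osmolyte transporters and raises their transcription. Slc5a3 carries myo-inositol into the cell with sodium, Slc6a6 carries taurine, and Slc38a2 carries small neutral amino acids. Isyna1 makes inositol phosphate from glucose phosphate, and Sgk1 is a kinase induced by glucocorticoids and by cell shrinkage that acts on many channels and transporters.

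The stretch before the start of each of the 3 transporter genes is shown because Nfat5 is known to act on all of them. The windows are the 250 bases before the start in the RefSeq promoters of build GRCr8, read 5′ to 3′ on the strand of the gene, and capitals mark the core of the TonE element, TGGAAA, or its reverse complement TTTCCA.
Slc6a6, chr4:125752252-125752501, plus strand: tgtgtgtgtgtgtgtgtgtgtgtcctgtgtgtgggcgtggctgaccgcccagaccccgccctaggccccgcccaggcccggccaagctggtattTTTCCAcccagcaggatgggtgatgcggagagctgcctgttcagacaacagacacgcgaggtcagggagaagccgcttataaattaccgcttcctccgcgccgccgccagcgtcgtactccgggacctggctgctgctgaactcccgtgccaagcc
Slc5a3, chr11:44799537-44799786, plus strand: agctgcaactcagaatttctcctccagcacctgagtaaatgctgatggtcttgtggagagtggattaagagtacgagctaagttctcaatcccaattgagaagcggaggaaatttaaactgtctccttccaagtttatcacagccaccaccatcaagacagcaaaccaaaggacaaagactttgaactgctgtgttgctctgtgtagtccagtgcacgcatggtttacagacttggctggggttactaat
Slc38a2, chr7:129742620-129742869, minus strand: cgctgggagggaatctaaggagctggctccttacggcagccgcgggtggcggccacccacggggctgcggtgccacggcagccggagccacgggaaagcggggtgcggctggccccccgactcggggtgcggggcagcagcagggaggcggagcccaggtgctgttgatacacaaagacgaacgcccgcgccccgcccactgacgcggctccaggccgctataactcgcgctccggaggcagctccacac
The Slc6a6 window held 1 core, on the opposite strand, with its first base at -156 from the start, and the bases around it also matched the full TonE consensus. The windows of Slc5a3 and Slc38a2 held no core. Of the other genes, Isyna1 had none in its 1 window, and 1 of the 3 windows of Sgk1 held 1 core (at -237) that lacked the full consensus. Nfat5 had no entry in the promoter table. For scale, 19.7% of 33469 rat promoter windows of this length held the core and 5.2% the full element, with both strands searched, and 2 of the 7 windows of these genes held the core. A match is a matter of letters only, and an empty window says nothing of elements elsewhere.

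The 3 transporters and Nfat5 were lower in every Galactose array than in either Control array, as were 12.1% of all probes. Sgk1 and Isyna1 overlapped between these groups. Against Control, the mean log2 signal in Galactose differed by -3.47 for Slc5a3 (standard error 0.32), -3.38 for Slc6a6 (0.33), -2.82 for Slc38a2 (0.35) and -1.65 for Nfat5 (0.35). With glutamate added for the last 3 days, the same 4 genes still lay below both Control arrays, and so did Isyna1. Of all probes, 15.0% lay below both Control arrays in this way. No gene passed the threshold of an adjusted p under 0.05 in limma between Glutamate and Galactose. The lens is a bulk tissue, in which fewer cells of a type and less RNA per cell cannot be told apart. All signals below are log2 values after the authors' normalization, and a level is compared only within a gene, since probes differ in how strongly they bind.

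**Figure D1:**
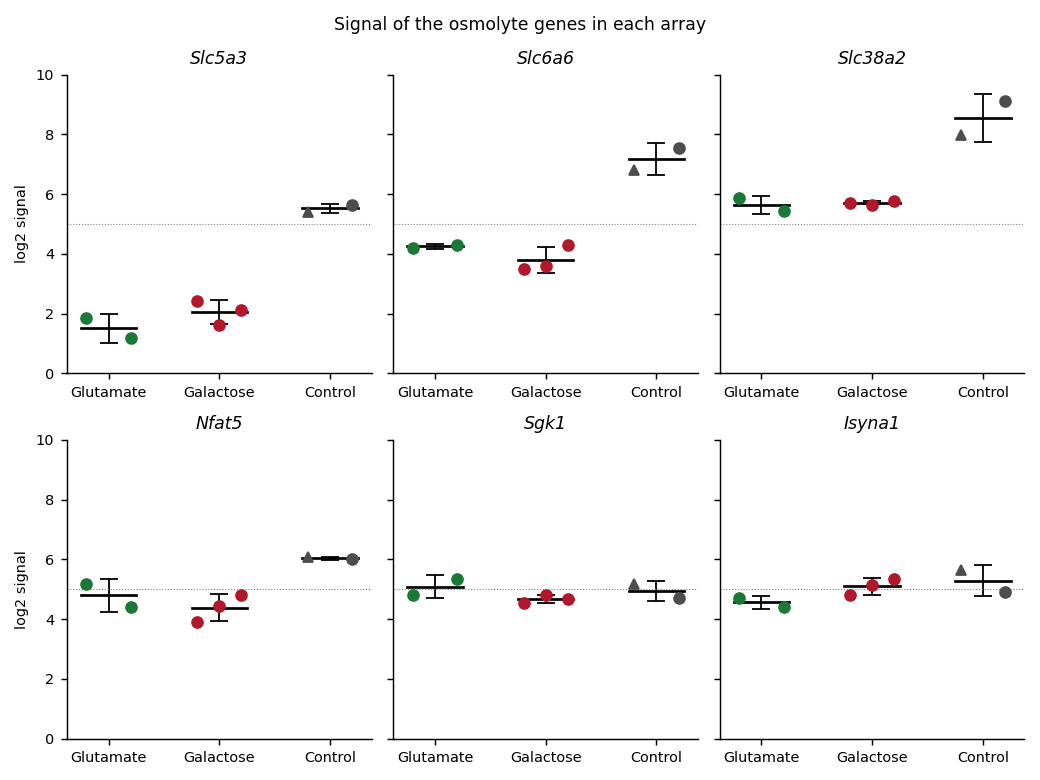
Log2 signal of the 6 genes (vertical axis) in each array by group, with Glutamate (n = 2), Galactose (n = 3) and Control (n = 2) from left to right. Points are single arrays (the triangle is the Day 4 Control), horizontal bars are group means, error bars are SDs, and the dotted line marks the signal of 5 used as a filter. Slc5a3, Slc6a6, Slc38a2 and Nfat5 lie lower in all Glutamate and Galactose arrays than in both Control arrays. Of all probes, 12.1% lie so for Galactose and 15.0% for Glutamate.

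Slc5a3, the myo-inositol transporter, had log2 signals of 1.84 and 1.17 in the Glutamate arrays, 2.43, 1.61 and 2.12 in Galactose, and 5.41 and 5.64 in the Day 4 and Day 6 Control. The Glutamate and Galactose arrays overlapped with each other and lay far below both Control arrays. The group means were 1.51 ± 0.48 in Glutamate, 2.05 ± 0.42 in Galactose and 5.53 ± 0.16 in Control (SD, n = 2, 3 and 2). The Galactose and Glutamate signals were below the median of all probes, which was 2.79 to 2.94 in the 7 arrays, so the size of the difference rests on dim signals. When all signals below 3 were raised to 3, the Galactose minus Control difference was -2.53 in place of -3.47. In the rat annotation Slc5a3 overlaps Mrps6, a gene for a mitochondrial ribosomal protein. The Mrps6 probe had signals of 3.25 and 3.54 in Glutamate, 3.28 to 3.45 in Galactose and 4.00 and 3.33 in Control, never above 5.

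Slc6a6, the taurine transporter, had signals of 4.20 and 4.30 in Glutamate, 3.51, 3.58 and 4.29 in Galactose, and 6.80 and 7.55 in Control. The 2 Glutamate arrays lay within or just above the range of the Galactose arrays, and the lowest Control array was well above both groups. Means were 4.25 ± 0.08 in Glutamate, 3.79 ± 0.43 in Galactose and 7.18 ± 0.53 in Control (SD, n = 2, 3 and 2). As a ratio of linear signals, Control was 10.4-fold above Galactose for Slc6a6. No ratio is given for Slc5a3, whose Galactose signals were below the array medians. Slc6a6 is the gene whose window above holds the full TonE element, as did 5.2% of 33469 rat promoter windows.

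Slc38a2, which brings in alanine, glutamine and other neutral amino acids, had signals of 5.86 and 5.43 in Glutamate, 5.72, 5.65 and 5.77 in Galactose, and 7.96 and 9.11 in Control. The 3 Galactose arrays lay close together, whereas the Control arrays were 1.14 apart, with Day 6 the higher. Means were 5.64 ± 0.31 in Glutamate, 5.71 ± 0.06 in Galactose and 8.54 ± 0.81 in Control (SD, n = 2, 3 and 2). Control was 7.08-fold above Galactose on the linear scale.

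Nfat5, the transcription factor itself, had signals of 5.18 and 4.40 in Glutamate, 3.90, 4.43 and 4.83 in Galactose, and 6.07 and 6.00 in Control. The Control arrays almost coincided, and both stood above all 5 arrays with galactose. Means were 4.79 ± 0.55 in Glutamate, 4.39 ± 0.46 in Galactose and 6.04 ± 0.04 in Control (SD, n = 2, 3 and 2). The linear ratio of Control over Galactose was 3.14 for Nfat5.

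The kinase Sgk1 had signals of 4.81 and 5.36 in Glutamate, 4.55, 4.81 and 4.68 in Galactose, and 5.19 and 4.72 in Control. These groups overlapped, and the difference between Galactose and Control was -0.27 (standard error 0.26, 95% interval -0.88 to 0.34). Isyna1, the inositol synthase, had signals of 4.72 and 4.41 in Glutamate, 4.81, 5.13 and 5.36 in Galactose, and 5.66 and 4.93 in Control. The Isyna1 difference between Galactose and Control was -0.19 (standard error 0.29, 95% interval -0.89 to 0.51). The Glutamate arrays of Isyna1 lay below all Galactose and Control arrays.

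In the limma fit over 5320 probes, Slc5a3 and Slc6a6 were 2 of the 5 probes past an adjusted p of 0.05 between Galactose and Control, and the only 2 that were lower (0.0376% of probes). Both had an adjusted p of 0.0315. These values belong to the contrast in which the genes were first noticed and are given as a description. The adjusted p was 0.0625 for Slc38a2, 0.124 for Nfat5, 0.558 for Sgk1 and 0.723 for Isyna1. By the size of the difference among the 5320 probes, counted from the lowest, Slc6a6 ranked 3, Slc38a2 ranked 5 and Nfat5 ranked 21. Slc6a6 passed the filter only through the Control arrays, where it was high, so its rank is a description and no support. No rank is given for Slc5a3 because its Galactose signals were so dim. The 4 genes whose arrays did not overlap stand beside 642 of all probes (12.1%) that were lower in every Galactose array than in both Control arrays.

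The threshold call for Slc5a3 and Slc6a6 was not stable. All 6 genes passed the filter of a signal above 5 in at least 1 array, Slc38a2 in every array, Nfat5 through Control and Glutamate 1, Sgk1 through the Day 4 Control and Glutamate 2, and Isyna1 through the Day 4 Control and Galactose 2 and 3. Slc5a3 and Slc6a6 passed the filter on dim probes only through the Control arrays, where they were high, and without that filter both had an adjusted p of 0.107 in limma. Without Galactose 1, 2 or 3 in turn, the adjusted p was 0.124, 0.215 and 0.290 for Slc5a3 and 0.128, 0.285 and 0.175 for Slc6a6. Without the Day 6 Control it was 0.0686 for Slc5a3 and 0.0663 for Slc6a6, and without either Glutamate array 0.0901 and 0.0930. Without the Day 4 Control it was 0.00586 for Slc5a3 and 0.00517 for Slc6a6, and 0.00517 for Slc38a2 and 0.0412 for Nfat5, in a fit that took 1717 probes past the threshold with a single Control array. The differences themselves stayed between -3.66 and -3.25 for Slc5a3 and between -3.76 and -3.01 for Slc6a6 when single arrays were left out.

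**Figure D2:**
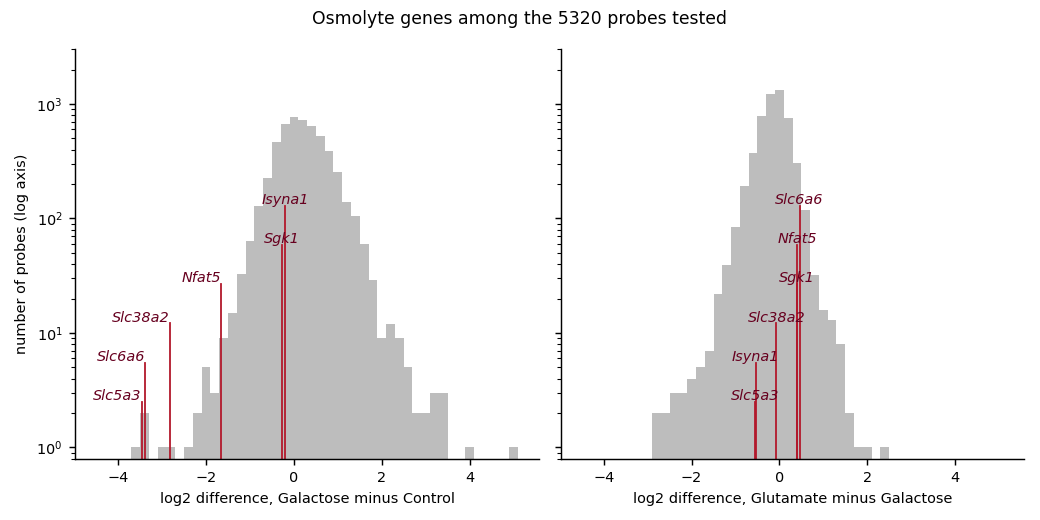
Histogram of the log2 difference of Galactose minus Control (left) and Glutamate minus Galactose (right) over 5320 probes (vertical log axis, number of probes per bin), with red lines at the 6 genes. The line heights only separate the names. Slc5a3 (-3.47), Slc6a6 (-3.38) and Slc38a2 (-2.82) lie in the far left tail on the left, and all 6 genes lie between -0.55 and 0.46 on the right.

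The 2 Control arrays differ in culture time, and only Day 6 matches the Galactose arrays in this respect. Over all tested probes, 1521 (28.6%) were at least 2-fold apart between the Control arrays, of which 1352 were lower and 169 higher in Day 6. The genes were therefore set against each Control array by itself. The Galactose mean differed by -3.36 from Day 4 and by -3.58 from Day 6 for Slc5a3, and the corresponding differences were -3.01 and -3.76 for Slc6a6. For Slc38a2 they were -2.25 from Day 4 and -3.40 from Day 6, and for Nfat5 -1.68 and -1.62. The Glutamate mean differed from Day 6 by -4.13 for Slc5a3, -3.30 for Slc6a6, -3.47 for Slc38a2 and -1.21 for Nfat5. The 4 genes thus lay below the Control array of the same culture time as well as below the younger one. Isyna1 changed direction with the choice of array, at -0.56 from Day 4 and 0.17 from Day 6, and Sgk1 differed by -0.51 from Day 4 and by -0.04 from Day 6.

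Whether glutamate turned these differences back was asked by setting Glutamate against Galactose, a contrast that was not used to choose the genes but shares the Galactose arrays with it. The differences were 0.46 for Slc6a6 (95% interval -0.33 to 1.25), 0.41 for Nfat5 (-0.42 to 1.23), -0.07 for Slc38a2 (-0.90 to 0.76) and -0.55 for Slc5a3 (-1.31 to 0.22). The limma adjusted p was 0.916, 0.927, 0.987 and 0.909 in the same order. The upper ends of these intervals were 1.25 for Slc6a6 and 0.76 for Slc38a2, each smaller than the size of that gene's Galactose minus Control difference. That difference comes from the contrast in which the genes were noticed, so its size may be overstated and the comparison is a description only. The Nfat5 difference of 0.41 was 0.02 without Glutamate 1, 0.17 without Galactose 1, 0.63 without Galactose 3 and 0.80 without Glutamate 2. The Slc5a3 signals were below the array medians in both groups, and with signals below 3 raised to 3 the difference was 0, so nothing was read from its interval. Sgk1 differed by 0.40 (-0.21 to 1.01, adjusted p = 0.914) and Isyna1 by -0.54 (-1.24 to 0.17, adjusted p = 0.908). No probe at all passed an adjusted p of 0.05 in this comparison (0%, in limma), and 294 of 5320 had an unadjusted p under 0.05. Isyna1 was the only gene of the 6 whose Glutamate arrays were all below the Galactose arrays, as were 21.7% of all probes, and none of the 6 had all Glutamate arrays above all Galactose arrays, as 7.76% of probes did. A p above the threshold with 2 and 3 arrays does not show that the 2 groups are alike.

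Against Control, the Glutamate arrays differed by -4.02 for Slc5a3 (standard error 0.35), -2.92 for Slc6a6 (0.36), -2.89 for Slc38a2 (0.38) and -1.24 for Nfat5 (0.38). The limma adjusted p was 0.0623 for Slc5a3, 0.247 for both Slc6a6 and Slc38a2 and 0.721 for Nfat5, and no probe passed the threshold (0%, with 352 probes at an unadjusted p under 0.05). The Slc5a3 difference rests on Glutamate signals below the array medians, and it was -2.53 with signals below 3 raised to 3. Counted from the lowest difference, Slc6a6 ranked 3 and Slc38a2 ranked 4 of the 5320 probes. Slc6a6 passed the filter only through the Control arrays, so its rank here too is a description. Isyna1 was 0.73 lower (-0.73, standard error 0.32, adjusted p = 0.730) and Sgk1 was 0.13 higher (standard error 0.28, adjusted p = 0.905). The Glutamate arrays of 5 of the 6 genes (all but Sgk1) were below both Control arrays, beside 15.0% of all probes. This comparison uses the same Control arrays as the one with Galactose, so the 2 are not separate evidence. Without the Day 4 Control, Slc5a3, Slc6a6 and Slc38a2 each had an adjusted p of 0.0155, in a fit with a single Control array in which 880 of all 5320 probes passed.

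**Figure D3:**
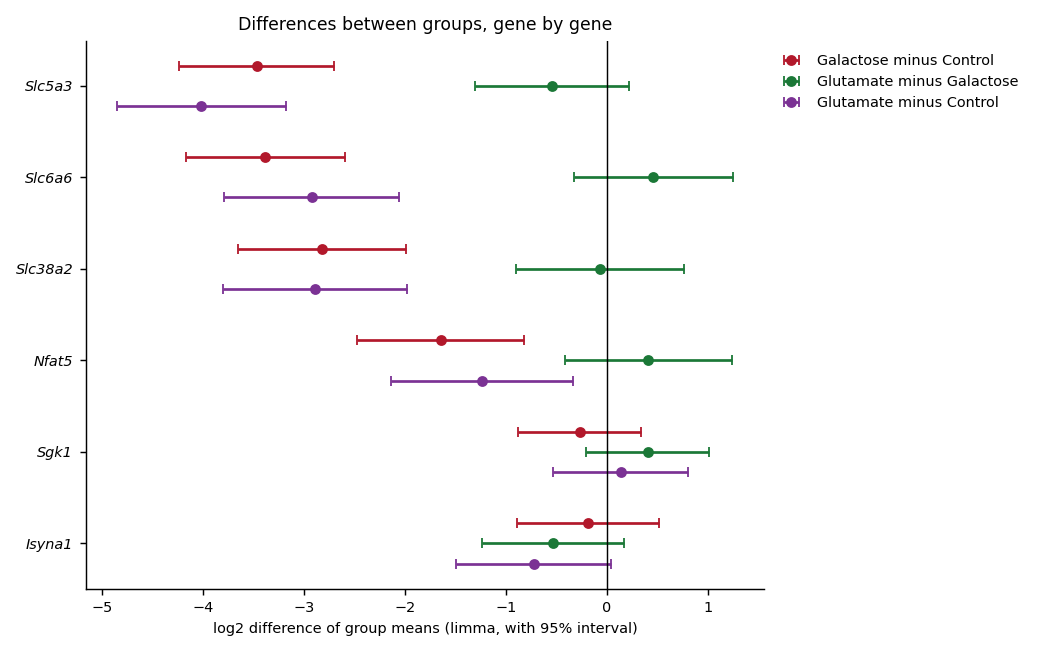
Log2 difference of group means (horizontal axis) for each of the 6 genes, with 95% intervals from limma, for Galactose minus Control (red), Glutamate minus Galactose (green) and Glutamate minus Control (purple). The intervals of Slc5a3, Slc6a6, Slc38a2 and Nfat5 exclude 0 against Control in both cases and include 0 between Glutamate and Galactose.

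The 6 genes fell into those that followed one pattern over the 7 arrays and those that did not. Pearson's r between the signals was 0.93 for Slc5a3 with Slc6a6, 0.97 for Slc5a3 with Slc38a2 and for Slc6a6 with Slc38a2, and 0.84 to 0.92 for Nfat5 with the 3 transporters. Sgk1 had r of -0.10 to 0.21 with the others, and Isyna1 0.37 to 0.52 with the transporters and Nfat5. These are descriptions over 7 arrays, which share the 2 high Control arrays. Among other genes on the array, those most like Slc5a3 were Uvrag (r = 0.977), Mras (0.975) and Efnb2 (0.975), and those most like Slc6a6 were Ttyh3 (0.988), Tent4b (0.977) and Epn2 (0.977). Slc38a2 was followed most closely by Znrf2 (0.990), Arhgap21 (0.982) and Spire1 (0.977), and Nfat5 by Ide (0.993), Ankrd40 (0.993) and Nr2c2 (0.979). Sgk1 was most like Pitx3 (0.913), a lens transcription factor, Acadm (0.900) and Mtfr1 (0.888), and Isyna1 most like Serpinh1 (0.968), Rbm25l1 (0.967) and Ptp4a1 (0.956).

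At an unadjusted p under 0.05, 904 of all 5320 probes differed between Galactose and Control, of which 278 were lower, and the counts of list genes at that p stand beside this share. Of 14 listed genes of the inositol pathway, 5 passed the filter, 1 with a higher and 4 with a lower mean in Galactose, and only Slc5a3 passed the test, with a list median of -0.29 beside 0.17 over all probes. Itpk1, an inositol phosphate kinase, differed by -0.42 between Galactose and Control, and Ip6k1, which makes inositol pyrophosphates, by -0.29. Ip6k1 passed the filter only through the Day 6 Control. Itpk1 and Ip6k1 were lower in every Galactose array than in both Control arrays, as were 642 of all 5320 probes (12.1%). Their adjusted p was 0.359 for Itpk1 and 0.421 for Ip6k1 in limma. Of 18 genes for uptake and synthesis of other organic osmolytes, 6 passed the filter (2 higher, 4 lower, median -0.09), and only Slc6a6 passed the test. Akr1b1, the aldose reductase that turns galactose into galactitol, had signals of 9.26 and 8.49 in Glutamate, 8.80 to 9.36 in Galactose, and 9.49 and 7.60 in Control. The Control arrays of Akr1b1 enclosed all others, and the difference of 0.61 (standard error 0.56, adjusted p = 0.541 in limma) lay within their spread. Csad, which acts in taurine synthesis, differed by -0.38, and Aldh7a1, which makes betaine, by 0.26.

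Of 17 amino acid transporters, 9 passed the filter (4 higher, 5 lower, median -0.16) and none passed the test in limma, while at an unadjusted p under 0.05 there were 1 higher and 2 lower. Slc38a4, a close relative of Slc38a2 and its neighbour on chromosome 7, had signals of 3.67 and 3.03 in Glutamate, 2.94 to 3.49 in Galactose, and 5.23 and 4.57 in Control. Its difference between Galactose and Control was -1.67 (standard error 0.32, adjusted p = 0.109 in limma), and it passed the filter only through the Day 4 Control. Slc38a1, the third of these relatives on that chromosome, lay the other way, with 4.74 and 4.02 in Glutamate, 4.94 to 5.22 in Galactose and 4.70 and 4.56 in Control, a difference of 0.48. It passed the filter only through Galactose 1 and 3. Slc3a2, the heavy chain shared by several amino acid exchangers, had 8.70 and 7.81 in Glutamate, 8.50 to 9.0 in Galactose, and 7.80 and 6.47 in Control. Its Galactose minus Control difference was 1.68 (standard error 0.45, adjusted p = 0.174), so the amino acid transporters did not share one direction.

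Among 23 channels, cotransporters and kinases of cell volume control, 8 passed the filter (2 higher, 6 lower, median -0.30) and none passed the test in limma, while at an unadjusted p under 0.05 there were 1 higher and 1 lower. Slc12a2, the sodium, potassium and chloride cotransporter by which shrunken cells gain salt, had signals of 4.73 and 4.62 in Glutamate, 4.66, 3.75 and 4.23 in Galactose, and 5.54 and 5.83 in Control. It was lower in all arrays with galactose than in Control, beside 12.1% of all probes for Galactose and 15.0% for Glutamate. Slc12a2 passed the filter only through the Control arrays, and its Galactose minus Control difference was -1.47 (standard error 0.29, adjusted p = 0.114 in limma). The kinases Stk39 and Oxsr1, which activate that cotransporter, differed by -0.53 and -0.35, and Clns1a by 0.57.

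The list of genes that Nfat5 is known to raise in other tissues holds 15 genes, among them 3 of the 6 genes described here. Of the 8 that passed the filter, 3 had a higher and 5 a lower mean in Galactose, and Slc5a3 and Slc6a6 passed the test. The list median was -1.50, but it was 0.44 without Slc5a3, Slc6a6 and Slc38a2 and -0.19 over all 12 with a probe, so the median rests on the 3 transporters. Besides the 3 transporters, the genes with a lower mean were Aqp1 and S100a4 (-0.18). The 3 with a higher mean were Ccl2 (1.10), Akr1b1 (0.61) and Aqp5 (0.44), and each overlapped between Galactose and Control. Aqp1, a water channel of the lens epithelium, had signals of 5.24 in both Glutamate arrays, 4.34, 5.13 and 4.85 in Galactose, and 7.17 and 8.34 in Control. It differed by -2.98 between Galactose and Control (standard error 0.39, adjusted p = 0.0633 in limma). Akr1b1, also a target of Nfat5, had no clear direction, since its Galactose arrays lay below the Day 4 Control and above the Day 6 Control.

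Of 15 partners and kinases of Nfat5, 12 passed the filter (7 higher, 5 lower, median 0.03), and none passed the test in limma or reached an unadjusted p under 0.05. The largest differences between Galactose and Control were 0.66 for Nup88, a nuclear pore protein, 0.56 for the kinase Abl1, 0.47 for Smarca4, a chromatin remodeller, and -0.43 for the kinase Fyn. Nup88 passed the filter only through Galactose 2, and Fyn only through the Day 4 Control. Of 23 relatives, upstream genes and targets of Sgk1, 14 passed the filter (4 higher, 10 lower, median -0.11) and none passed the test, with 1 lower at an unadjusted p under 0.05. Ndrg1, a substrate of Sgk1, had 10.11 and 9.94 in Glutamate, 9.11, 9.39 and 9.82 in Galactose, and 10.52 and 9.89 in Control, a difference of -0.77 from Control (standard error 0.29, adjusted p = 0.272). Nedd4, Ndrg3 and Akt1 differed by -0.56, 0.48 and -0.33. Between Glutamate and Galactose and between Glutamate and Control, no gene of the 7 lists passed the test in limma. At an unadjusted p under 0.05, 1 amino acid transporter was lower between Glutamate and Galactose, beside 234 of all 5320 probes. Between Glutamate and Control, where 196 of all probes were lower at that p, the lower genes were 1 of the inositol list, 1 of the other osmolytes, 2 amino acid transporters, 1 of the cell volume list and 4 Nfat5 targets. The lists share genes, and Slc5a3, Slc6a6 and Slc38a2 are 3 of those 4 targets.

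**Figure D4:**
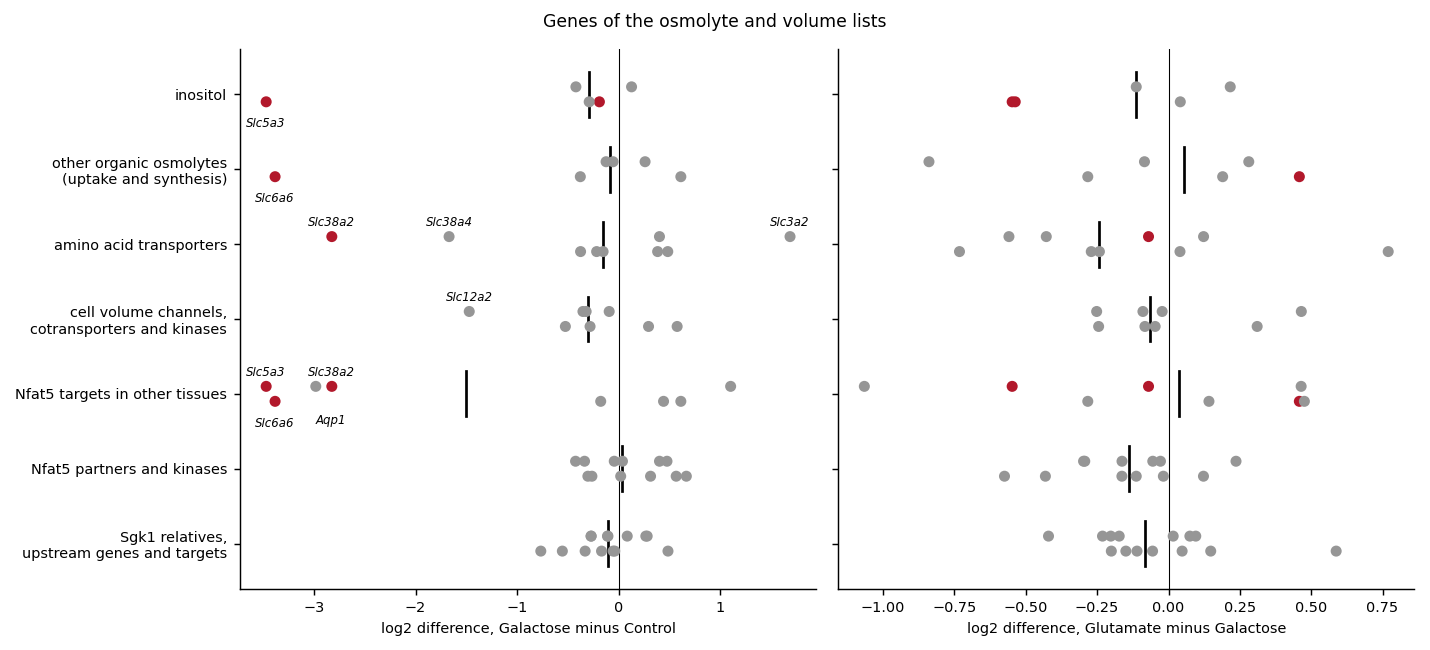
Log2 difference (horizontal axes) of Galactose minus Control (left) and Glutamate minus Galactose (right) for each gene of 7 lists that passed the filter. Red points are Slc5a3, Slc6a6, Slc38a2 and Isyna1, grey points are other genes, black bars are list medians, and the horizontal scales differ. On the left the transporters, Aqp1, Slc38a4 and Slc12a2 (lower) and Slc3a2 (higher) stand apart from lists whose medians are otherwise between -0.30 and 0.03, and the median of the Nfat5 targets is -1.50. Slc5a3, Slc6a6, Slc38a4 and Slc12a2 passed the filter only through Control arrays.

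The tissue was checked against its markers. All 5 lens epithelium markers and all 5 lens fibre markers with a probe were above a signal of 5 in at least 1 array. Of 5 leukocyte markers only Cd68 exceeded 5, in Glutamate 2 alone (5.15), and none of the pigmented ciliary body, retina, vessel and fibroblast markers with a probe did. The summed linear signal of the leukocyte markers was 56.0 to 57.0 in Glutamate, 43.0 to 69.2 in Galactose and 32.3 to 59.0 in Control. Foxe3, a transcription factor that defines the lens epithelium, had 5.85 and 6.05 in Glutamate, 4.06, 4.89 and 4.89 in Galactose, and 6.88 and 6.25 in Control. Of the 5 epithelial markers, only Foxe3 had all Galactose arrays below Control, as had 12.1% of all probes. Its difference was -1.95 between Galactose and Control (standard error 0.33, adjusted p = 0.0896) and 1.34 between Glutamate and Galactose (standard error 0.33, adjusted p = 0.606 in limma). The summed linear signal of the epithelial markers was 609 to 744 in Glutamate, 383 to 906 in Galactose and 617 to 858 in Control. That of the fibre markers was 9088 to 9733 in Glutamate, 7680 to 8138 in Galactose and 8805 to 10525 in Control, so it was lower in Galactose than in either other group. The 5 fibre markers did not share one direction, with Galactose minus Control at -1.27 for Gja3, -0.70 for Mip, -0.23 for Bfsp1, 0.08 for Lim2 and 0.56 for Dnase2b. The summed epithelial signal in Galactose enclosed that in Control. Foxe3 and the summed fibre signal were lower in Galactose beside the 4 low genes, and their part in those differences was not tested.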

How the data were processed

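RNA of 7 cultured rat lens samples was measured on 1 array each. The arrays were normalized together by the authors (Robust Multi-array Average), who deposited 1 log2 signal per probe and array. Genes were named from the platform annotation (18511 of 36685 probes with 1 gene, 575 with several and 17599 with none). Probes with a gene and a signal above 5 in at least 1 array (5320, for 5031 genes) were compared in R 4.3.3 with limma 3.58.1, with 1 mean per group (residual degrees of freedom 4, prior 2.73), and p was adjusted by Benjamini-Hochberg over all 5320. The other tables were computed with Python 3.11.15, numpy 2.4.6 and pandas 2.3.3, and the fit was tested on simulated data. The number of arrays, 2 or 3 a group, limits the precision.

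The members and lists were chosen with earlier results of these data known. Named were the 6 genes, the 3 genes most like each by Pearson's r, and, per list, every gene past the threshold, filled up to 4 by the largest difference between Galactose and Control. All Nfat5 targets that passed the filter were named as well, to show both directions. Several markers and list genes had no probe of their own in the naming used and were not analysed here. Alternatives covered the filter, normalization, variance model, sets of arrays and threshold.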

Additional observations from a re-analysis of the deposited data

How the results depend on the processing

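Slc5a3 and Slc6a6 kept the sign of their Galactose minus Control difference in all alternatives, 16 for Slc5a3 and 17 for Slc6a6. Settings that changed only the filter, the prior, the threshold, the averaging of probes or the Glutamate arrays could not move this difference. Their unchanged sign is therefore no test. The adjusted p in limma was under 0.05 in 6 and 8 alternatives. These counts include the main fit at the threshold of 0.1, a setting chosen after seeing the data and the fit without the Day 4 Control. Without the filter the values were -3.47 and -3.38 with 0 members, 0 list genes and 0 probes past the threshold. With array weights they were -3.64 and -3.36 (0 members, 0 probes, and 1 probe for Glutamate minus Galactose), and with the compared groups alone -3.47 and -3.38 (0 members, 1 probe). An intensity trend with a robust prior left 1 member (Slc5a3 at -3.47 was lost). Probes past the threshold were 5 in the main analysis, 11 with a signal above 6, 20 after a second quantile normalization, 11 with median-centred arrays and 45 at an adjusted p under 0.1. Slc38a2 passed at -2.82 with a signal above 6, at -2.83 after centring and at -2.82 under the threshold of 0.1. At a signal above 6, Slc5a3, Sgk1 and Isyna1 were not tested. For Glutamate minus Control, Slc5a3 passed after quantile normalization (-4.14), under a threshold of 0.1 (-4.02) and with signals below 3 raised to 3 (-2.53, a setting chosen after seeing the data), each with 1 member and 1 probe. The Glutamate minus Galactose difference of Slc38a2 turned to 0.0381 after quantile normalization. The cause of these changes was not tested.

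Leaving out single arrays gave, for Galactose minus Control, -3.66 to -3.25 (Slc5a3), -3.76 to -3.01 (Slc6a6), -3.40 to -2.25 (Slc38a2), -1.87 to -1.41 (Nfat5) and -0.56 to 0.17 (Isyna1), with 0 to 4 members and 0 to 1717 probes past the threshold. The highest counts came without the Day 4 Control, where the lone Control array is assumed to vary like the other groups. For Glutamate minus Control the ranges were -4.35 to -3.68 (Slc5a3), -3.30 to -2.55 (Slc6a6), -3.47 to -2.32 (Slc38a2) and -0.14 to 0.41 (Sgk1), with 0 to 3 members and 0 to 880 probes. For Glutamate minus Galactose they were -0.88 to -0.21 (Slc5a3), 0.32 to 0.71 (Slc6a6), -0.29 to 0.15 (Slc38a2), 0.02 to 0.80 (Nfat5), 0.13 to 0.68 (Sgk1) and -0.69 to -0.38 (Isyna1). Of the 18 most alike genes, 9 stayed among the first 3 after quantile normalization, where r was 0.602 (Ptp4a1) to 0.996.

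Same-numbered Glutamate and Galactose arrays did not deviate together (r = -0.033 and 0.056), so the numbers were not taken as pairs. With a replicate block, Glutamate minus Galactose was -0.51 for Slc5a3, 0.71 for Slc6a6, -0.04 for Slc38a2, 0.63 for Nfat5, 0.40 for Sgk1 and -0.41 for Isyna1, with 0 probes past the threshold.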
